A study of Caenorhabditis elegans with 21 samples.

Results

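The metal-responsive genes described here are mtl-2, the cdr genes cdr-1, cdr-2, cdr-4 and cdr-6, and the 2 copies of numr-1, measured in whole-worm RNA of Caenorhabditis elegans. They were chosen by name, with earlier results of these data known. For the 8 names given, WormBase IDs were joined to symbols, and 7 genes were found among the 46254 gene IDs of the table. The symbol cdr-5 matched no ID in the name tables used, so no value is given for it. The 2 numr-1 copies are WBGene00017270 (sequence name F08F8.5) and WBGene00017267 (F08F8.1). Annotation release 115 calls both numr-1, while RefSeq calls F08F8.1 numr-2.

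All 21 libraries came from day 1 adults of the wild-type strain N2 at 20 °C, with 3 libraries in each of 7 groups. OP50 bacteria are named as food, but starved worms had none for 15 h and the RNAi group was on RNAi plates. Controls were untreated (replicates 4, 6 and 7). Starved worms (1, 2 and 3) spent the 15 h before collection on plates without food. From L4, the last larval stage, until the next day, worms were kept on 200 µM fluphenazine (2, 4 and 9), a phenothiazine antipsychotic, on 200 µM cantharidin (1, 3 and 9), an inhibitor of protein phosphatases, or on bortezomib, an inhibitor of the proteasome, at 10 µM (7, 8 and 9) or 25 µM (3, 4 and 6). The last group (4, 5 and 6) was placed at L3 on RNAi plates against rpn-6, the gene of a subunit of the proteasome lid. A vehicle control or a control with an empty RNAi vector is not among the labelled groups. The labels leave it unsaid if replicates were grown separately, so p-values measure the spread between these samples, which may be technical.

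Metallothioneins are small cysteine-rich proteins that bind zinc, copper and cadmium; C. elegans has mtl-1 and mtl-2, and mtl-2 is known as an intestinal gene that rises strongly with cadmium. The symbol cdr stands for cadmium responsive, a family name that does not mean each member responds to cadmium. cdr-1 encodes a lysosomal membrane protein that protects worms from this metal. NUMR-1 is a nuclear protein whose gene is switched on by metals, and numr-1 is also known to rise when RNA splicing is disturbed.

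Levels are in FPKM, which divides the fragments of a gene by its length and by the size of the library, so levels of different genes can be set side by side. Relative depth, estimated from the steps between low values, ran from 0.943 to 1.50 of control 4; read totals were not given. Tests are limma moderated tests on log2(FPKM + 1) in 1 fit of all 21 libraries, and a gene is called at a Benjamini-Hochberg adjusted p under 0.05 over the 17492 genes that reached 1 FPKM in at least 3 libraries. All 7 metal-responsive genes passed that filter. A change is given on the log2 scale with its standard error (SE), a level as a mean with its SD, and n = 3 per group throughout; for genes near 0 FPKM the added constant of 1 makes the log2 change smaller than the ratio of the levels. All 6 comparisons against control share the same 3 control libraries. The typical gene was itself higher than in control: the median change over all tested genes was 0.38 for starvation, 0.34 for both fluphenazine and cantharidin, 0.31 for rpn-6 RNAi, and 0.16 and 0.40 for 10 µM and 25 µM bortezomib. Median-of-ratios scaling brought these medians to between -0.05 and 0.12. Control 7, fluphenazine 4 and starvation 3 stood apart, with a mean correlation of 0.938, 0.891 and 0.843 with the rest of their groups over all tested genes. The RNAi target, rpn-6.1, was at 115, 122 and 127 FPKM in the RNAi libraries and at 168, 168 and 130 FPKM in controls 4, 6 and 7. This difference (-0.35 ± 0.14, adjusted p = 0.0553) was not called, while rpn-6.1 was called lower, at -0.38, -0.36 and -0.36, in starvation, fluphenazine and cantharidin. In 10 µM and 25 µM bortezomib it was called higher than in control, at 0.49 ± 0.14 in both (adjusted p = 0.0250 and 0.0066).

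The metallothionein gene mtl-2 (WBGene00003474) was the most abundant of the 7 genes in control worms and was far lower in the 2 bortezomib groups, in rpn-6 RNAi and in cantharidin. It stood at 204, 199 and 129 FPKM in controls 4, 6 and 7. In starvation 1, 2 and 3 it was at 108, 143 and 198 FPKM, and in fluphenazine 2, 4 and 9 at 169, 289 and 189 FPKM. Those 9 libraries overlap and form the upper range of this gene. In cantharidin 1, 3 and 9 it was at 38.5, 44.9 and 29.5 FPKM, in rpn-6 RNAi 4, 5 and 6 at 34.2, 29.2 and 23.8 FPKM, and in the 10 µM bortezomib libraries 7, 8 and 9 at 37.7, 32.0 and 34.0 FPKM. These 3 groups overlap one another, and the highest of their libraries lies below the lowest of starvation, control and fluphenazine. In the 25 µM bortezomib libraries 3, 4 and 6 it was at 16.4, 7.68 and 7.23 FPKM, below every library of the other groups.

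Against control, mtl-2 fell in 4 treatments, with log2 changes of -2.197 ± 0.30 in cantharidin (adjusted p = 2.88e-05), -2.55 ± 0.30 in rpn-6 RNAi (adjusted p = 2.93e-06), -2.301 ± 0.30 in 10 µM bortezomib (adjusted p = 7.39e-05) and -4.02 ± 0.30 in 25 µM bortezomib (adjusted p = 1.68e-08). The mean at the higher bortezomib dose was 10.5 ± 5.20 FPKM against 177 ± 41.6 FPKM in controls, a ratio of 0.0589. In starvation the change was -0.26 ± 0.30 (adjusted p = 0.464) and in fluphenazine 0.27 ± 0.30 (adjusted p = 0.464), neither of them called; the fluphenazine value was -0.13 with median-of-ratios scaling. In the order of group means, the step from 25 µM bortezomib up to rpn-6 RNAi was called (adjusted p = 0.00288), and so was the step from cantharidin up to starvation (adjusted p = 1.74e-04). The steps within the middle group (rpn-6 RNAi, 10 µM bortezomib, cantharidin) and within the upper group (starvation, control, fluphenazine) were not called.

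**Figure D1:**
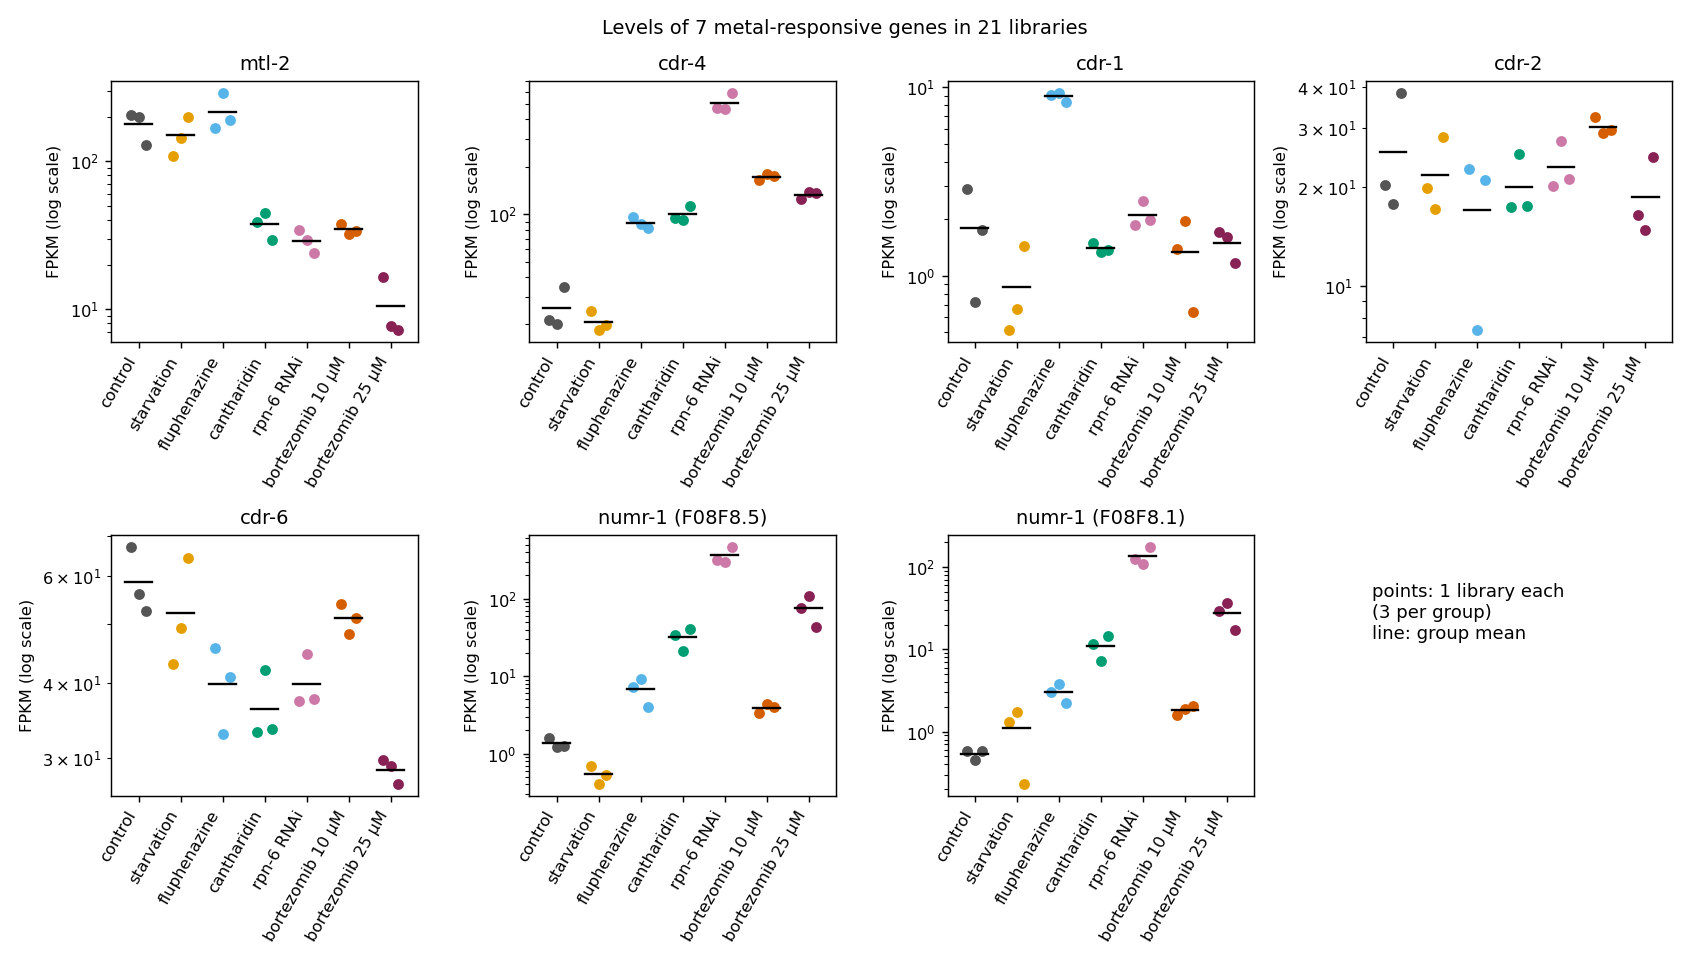
FPKM on a log scale for the 7 metal-responsive genes, 1 panel per gene; points are single libraries, 3 per group, and black lines are group means. mtl-2 forms an upper set of 9 libraries, a middle set of 9 and a lowest set of the 3 libraries at 25 µM bortezomib, while cdr-4 and both numr-1 copies are highest in rpn-6 RNAi.

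Because mtl-2 is an intestinal gene and whole worms were sequenced, markers of the intestine were read beside it. In bulk samples, fewer cells of a type and less RNA per cell cannot be told apart. Of 10 intestinal markers written down, 9 were found, and their summed level was 2409 to 2817 FPKM in controls, 1946 to 2715 FPKM in cantharidin and 2254 to 2444 FPKM in 10 µM bortezomib, but 849 to 1170 FPKM in rpn-6 RNAi and 772 to 1426 FPKM in 25 µM bortezomib. In 10 µM bortezomib, where mtl-2 was at 0.195 of its control mean, 1 marker was called higher and 0 lower of the 9. In cantharidin 2 were higher and 2 lower, in rpn-6 RNAi 2 were higher and 4 lower, and in 25 µM bortezomib 3 were higher and 4 lower. elt-2, the GATA factor that defines the intestine, is 1 of the 9 and went against their sum in rpn-6 RNAi and 25 µM bortezomib. It had means of 11.2 FPKM in controls, 27.6 in cantharidin and 20.5 in rpn-6 RNAi. Its mean was 21.1 FPKM in 10 µM and 36.8 FPKM in 25 µM bortezomib, and it was not at 0 in any library. act-5 was at 0 in at least 1 library of control, fluphenazine, cantharidin and 25 µM bortezomib, and vha-6 in at least 1 of cantharidin. Both are abundant elsewhere, so these zeros lower the sums there. No rpn-6 RNAi library holds such a zero. Of 8 oocyte markers all were lower in starvation, where none of the 7 genes was called, and of 7 neuronal markers 5 or 6 were higher in each treatment except 10 µM bortezomib, where 0 were called by limma. The part of the intestinal signal in the fall of mtl-2 was not tested in any of the 4 treatments in which it fell.

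The second metallothionein gene, mtl-1, was not a member but is the natural partner of mtl-2, and it had another order of levels. It stood at 2.195, 0 and 0.716 FPKM in controls 4, 6 and 7, at 28.5, 28.6 and 84.5 FPKM in starvation 1, 2 and 3, and at 141, 54.1 and 79.0 FPKM in fluphenazine 2, 4 and 9. It was at 14.7 to 16.2 FPKM in rpn-6 RNAi, at 5.76 to 13.7 FPKM in 25 µM bortezomib, at 2.28 to 6.33 FPKM in cantharidin and at 1.58 to 2.66 FPKM in 10 µM bortezomib. Against control it rose in rpn-6 RNAi (3.22 ± 0.48, adjusted p = 5.00e-05), in 25 µM bortezomib (2.62 ± 0.48, adjusted p = 3.09e-04) and in cantharidin (1.50 ± 0.48, adjusted p = 0.0232), 3 of the 4 groups in which mtl-2 fell. It rose most in fluphenazine (5.60 ± 0.48, adjusted p = 2.81e-07) and starvation (4.58 ± 0.48, adjusted p = 1.61e-06), where mtl-2 was not called. In 10 µM bortezomib, where mtl-2 also fell, the mtl-1 change was 0.79 ± 0.48 (adjusted p = 0.308), not called. Summed over both genes, metallothionein was at 178 ± 41.9 FPKM in controls, 197 ± 76.1 FPKM in starvation and 307 ± 37.99 FPKM in fluphenazine. The sum was 41.9 ± 9.75 FPKM in cantharidin, 44.5 ± 5.58 FPKM in rpn-6 RNAi, 36.6 ± 3.34 FPKM in 10 µM and 20.9 ± 8.68 FPKM in 25 µM bortezomib. mtl-1 made up 0.538% ± 0.532 of that sum in controls, 22.5% ± 6.78 in starvation, 30.3% ± 14.9 in fluphenazine, 34.9% ± 3.71 in rpn-6 RNAi and 50.2% ± 9.15 in 25 µM bortezomib. In cantharidin and 10 µM bortezomib the share was 9.78% ± 2.59 and 5.63% ± 1.09.

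**Figure D2:**
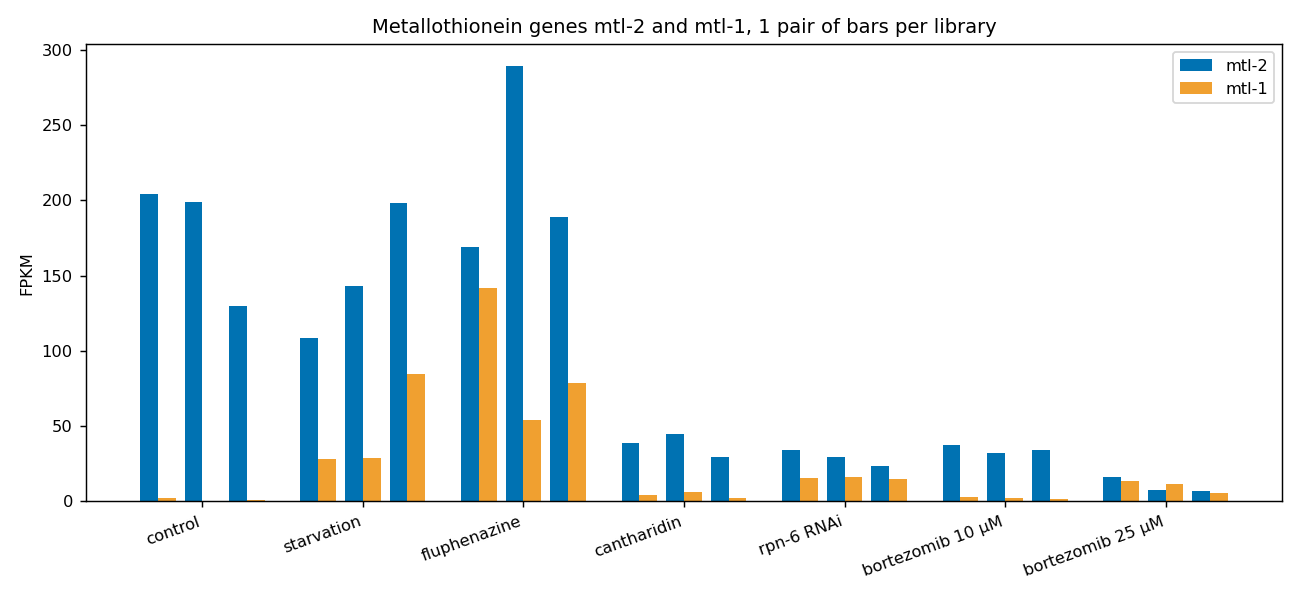
FPKM of mtl-2 (blue) and mtl-1 (orange) in each of the 21 libraries, 3 pairs of bars per group, replicates in rising number from left to right. mtl-2 is above 100 FPKM only in the control, starvation and fluphenazine libraries, and mtl-1 is above 20 FPKM only in the starvation and fluphenazine libraries.

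Among the cdr genes, cdr-4 (WBGene00010470) was higher than in control in every treatment except starvation, and rpn-6 RNAi gave its highest level. It stood at 21.4, 20.1 and 34.7 FPKM in controls 4, 6 and 7 and at 24.3, 18.4 and 19.8 FPKM in starvation 1, 2 and 3, which overlap. In fluphenazine 2, 4 and 9 it was at 96.1, 86.8 and 81.9 FPKM, and in cantharidin 1, 3 and 9 at 95.3, 92.3 and 114 FPKM. In the bortezomib libraries it was at 164, 181 and 174 FPKM at 10 µM (7, 8 and 9) and at 125, 139 and 136 FPKM at 25 µM (3, 4 and 6). In rpn-6 RNAi 4, 5 and 6 it reached 475, 463 and 589 FPKM, and the last of these is the highest value of the 7 genes in any library. None of the 15 libraries of these 5 treatments overlaps the controls.

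cdr-4 rose by 4.30 ± 0.16 in rpn-6 RNAi (adjusted p = 3.74e-12, a ratio of means of 20.0), by 2.76 ± 0.16 in 10 µM bortezomib (adjusted p = 1.46e-08) and by 2.39 ± 0.16 in 25 µM bortezomib (adjusted p = 7.28e-09). It rose by 1.98 ± 0.16 in cantharidin (adjusted p = 2.08e-07) and by 1.80 ± 0.16 in fluphenazine (adjusted p = 4.82e-07). In starvation it was at -0.24 ± 0.16 (adjusted p = 0.212), not called with the values as deposited; it was at -0.58 (adjusted p = 0.00815) with median-of-ratios scaling and at 0.13 with array weights. In the order of levels, the step from control to fluphenazine and the step from 10 µM bortezomib to rpn-6 RNAi (adjusted p = 1.86e-06) were called, and the steps between fluphenazine, cantharidin, 25 µM and 10 µM bortezomib were not. Without control 7, 4 of the 6 steps were called.

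cdr-1 (WBGene00000412), the best known gene of the family, was low everywhere except in fluphenazine. It stood at 9.08, 9.33 and 8.39 FPKM in fluphenazine 2, 4 and 9, while the other 18 libraries ran from 0.514 FPKM to the 2.89 FPKM of control 4. No fluphenazine library overlaps any other library. Against control cdr-1 rose by 1.91 ± 0.26 in fluphenazine (8.93 ± 0.490 against 1.79 ± 1.09 FPKM, adjusted p = 3.25e-05), and the step from rpn-6 RNAi, next in order, up to fluphenazine was called as well (adjusted p = 9.20e-05). The other 5 comparisons gave changes from -0.53 ± 0.26 in starvation (adjusted p = 0.0935) to 0.23 ± 0.26 in rpn-6 RNAi (adjusted p = 0.546), none of them called. Fluphenazine 4, which stood apart over all genes, was the highest library for cdr-1.

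cdr-6 (WBGene00010471) was the steadiest gene of the set that still changed, with group means from 28.7 to 58.6 FPKM. It stood at 67.1, 56.1 and 52.6 FPKM in controls 4, 6 and 7 and at 29.8, 29.1 and 27.2 FPKM in the 25 µM bortezomib libraries 3, 4 and 6, the lowest group. Cantharidin was at 33.1 to 41.9 FPKM, rpn-6 RNAi at 37.4 to 44.5 FPKM and fluphenazine at 32.9 to 45.6 FPKM, all below the controls without overlap. Starvation (42.9 to 64.4 FPKM) overlaps the controls, and so does 10 µM bortezomib (48.2 to 53.9 FPKM). cdr-6 fell in 4 treatments, with log2 changes of -0.997 ± 0.15 in 25 µM bortezomib (adjusted p = 4.54e-05), -0.68 ± 0.15 in cantharidin (adjusted p = 0.00224), -0.54 ± 0.15 in rpn-6 RNAi (adjusted p = 0.00863) and -0.55 ± 0.15 in fluphenazine (adjusted p = 0.00852). The fluphenazine call was lost in a fit of those groups alone (adjusted p = 0.0831). No step between neighbouring groups was called in the order of cdr-6 levels.

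cdr-2 (WBGene00008296) passed the test in no comparison with control by limma (0 of 6, and 0 of 6 at an unadjusted p under 0.05). That rests on the scaling: with median-of-ratios scaling it was called lower in fluphenazine (-1.01, adjusted p = 0.0193) and 25 µM bortezomib (-0.81, adjusted p = 0.0472). Quantile normalization called the same 2 (-1.05 and -1.07), and array weights called it higher in 10 µM bortezomib (0.62). Its controls 4, 6 and 7 were at 20.3, 17.8 and 38.4 FPKM, so control 7 alone lies above all libraries of the treated groups. The group means ran from 16.9 ± 8.33 FPKM in fluphenazine, where fluphenazine 4 was at 7.36 FPKM and the others at 22.6 and 20.9 FPKM, to 30.4 ± 1.85 FPKM in 10 µM bortezomib. Control 7 and fluphenazine 4, which stood apart over all genes, are thus the extremes of this gene. Changes against control ran from -0.62 ± 0.35 in fluphenazine (adjusted p = 0.155) to 0.32 ± 0.35 in 10 µM bortezomib (adjusted p = 0.607), and the signs in starvation, cantharidin and rpn-6 RNAi turned when control 7 was left out.

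In the order of protein-coding genes on assembly WBcel235, cdr-4, hrg-2, cdr-7, cdr-6, cdr-2 and cdr-3 follow one another on the same strand, with no other protein-coding gene between them, and their levels did not move together. hrg-2, named for its response to heme and added after its values were seen, was at 1.94, 1.12 and 1.51 FPKM in controls 4, 6 and 7 and at 123, 142 and 126 FPKM in rpn-6 RNAi 4, 5 and 6, a rise of 5.71 ± 0.50 (adjusted p = 1.19e-07). It rose by 3.26 ± 0.50 in 10 µM bortezomib (adjusted p = 4.38e-04) and by 3.12 ± 0.50 in 25 µM bortezomib (adjusted p = 8.74e-05), but was at 0.34 ± 0.50 in cantharidin and 0.44 ± 0.50 in fluphenazine, not called, where cdr-4 rose. In starvation hrg-2 was at 3.57, 3.69 and 20.9 FPKM, the last in starvation 3, and was called as well (1.64 ± 0.50, adjusted p = 0.0121). cdr-7 fell from 14.2 ± 1.48 FPKM in controls to 2.68 ± 2.21 FPKM in starvation (-2.198 ± 0.29, adjusted p = 1.64e-05), also fell in fluphenazine (-1.38 ± 0.29) and cantharidin (-1.46 ± 0.29), and rose by 0.89 ± 0.29 in rpn-6 RNAi (adjusted p = 0.0244). cdr-3 did not reach 1 FPKM in 3 libraries and was not tested; its highest group mean was 1.29 ± 0.269 FPKM in 25 µM bortezomib, against 0.133 ± 0.070 FPKM in controls. The genes of this family are related in sequence and how the counting shared reads between them was not stated.

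**Figure D3:**
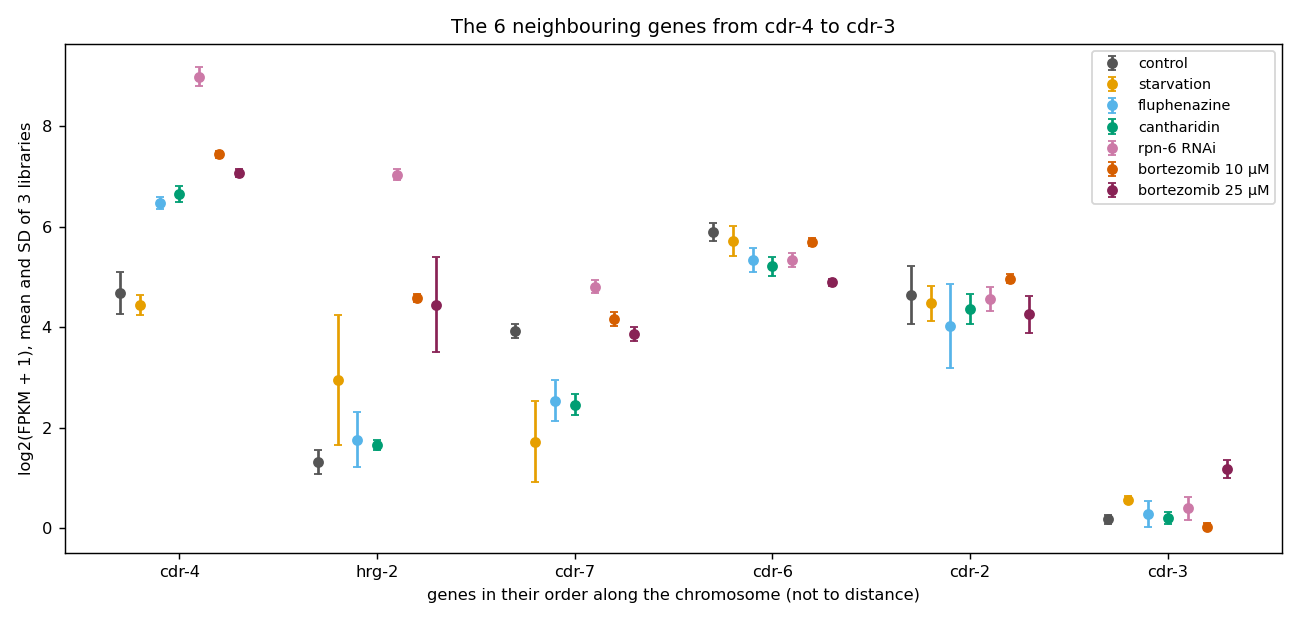
log2(FPKM + 1), mean and SD of 3 libraries per group, for 6 neighbouring genes in their order along the chromosome, with colours for the 7 groups. In rpn-6 RNAi the genes cdr-4 and hrg-2 stand far above their controls, cdr-7 is above, and cdr-6 is below. Without rescaling or array weights, cdr-2 shows no group that is called against control.

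The numr-1 copies rose together and had the widest range of the set. F08F8.5 stood at 1.61, 1.21 and 1.26 FPKM in controls 4, 6 and 7 and at 320, 295 and 471 FPKM in rpn-6 RNAi 4, 5 and 6. In the 25 µM bortezomib libraries 3, 4 and 6 it was at 76.3, 107 and 42.7 FPKM, while at 10 µM (7, 8 and 9) it was at 3.38, 4.40 and 3.98 FPKM. Between the 2 doses came cantharidin 1, 3 and 9 at 33.8, 21.2 and 41.1 FPKM. Fluphenazine 2, 4 and 9, at 7.31, 9.25 and 4.04 FPKM, overlapped the 10 µM libraries. Starvation 1, 2 and 3 lay lowest at 0.691, 0.409 and 0.532 FPKM. Outside starvation every treated library lies above every control library for both copies.

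F08F8.5 rose by 7.24 ± 0.32 in rpn-6 RNAi (adjusted p = 2.27e-11, a ratio of means of 267), by 4.93 ± 0.32 in 25 µM bortezomib (adjusted p = 3.22e-09) and by 3.76 ± 0.32 in cantharidin (adjusted p = 2.22e-07). F08F8.1 rose by 6.47 ± 0.32, 4.17 ± 0.32 and 2.93 ± 0.32 in the same groups, with levels of 138 ± 35.5, 27.9 ± 9.84 and 11.1 ± 3.70 FPKM against 0.540 ± 0.0746 FPKM in controls. In fluphenazine the rises were 1.68 ± 0.32 (adjusted p = 5.79e-04) and 1.37 ± 0.32 (adjusted p = 0.00303), and both calls were lost with quantile normalization (adjusted p = 0.151 and 0.212). In 10 µM bortezomib F08F8.5 was called at 1.06 ± 0.32 (adjusted p = 0.0365), a call lost when any of the 6 libraries was left out (adjusted p = 0.0654 to 0.110), and F08F8.1 was at 0.89 ± 0.32 (adjusted p = 0.0769), not called. In the order of F08F8.5 levels the steps from control to 10 µM bortezomib, from fluphenazine to cantharidin, from cantharidin to 25 µM bortezomib and from there to rpn-6 RNAi were called. For F08F8.1 the upper 3 of these steps were called.

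The 2 copies lie next to each other on opposite strands, and their annotated spans are equally long at 846 bases. Because the copies are near-identical and the treatment of fragments that match both is not stated, the split of reads between them is uncertain and the sum of both is the safer value. Outside starvation the ratio of F08F8.5 to F08F8.1 was 2.51 ± 0.330 (SD over 18 libraries, from 1.83 to 2.96), although the levels spanned more than 2 powers of 10. In starvation the ratio was 0.532, 0.232 and 2.28 in libraries 1, 2 and 3, at levels near 1 FPKM. The sum of both copies was 1.90 ± 0.276 FPKM in controls, 1.64 ± 0.763 FPKM in starvation, 5.77 ± 0.699 FPKM in 10 µM bortezomib and 9.89 ± 3.44 FPKM in fluphenazine. It was 43.2 ± 13.8 FPKM in cantharidin, 103 ± 42.2 FPKM in 25 µM bortezomib and 500 ± 131 FPKM in rpn-6 RNAi.

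**Figure D4:**
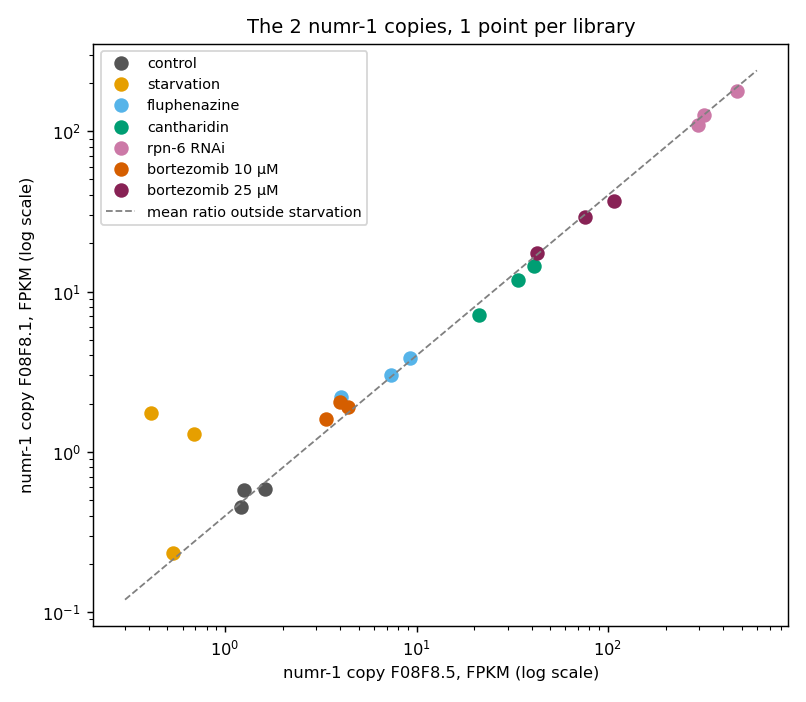
FPKM of the numr-1 copies F08F8.5 (horizontal) and F08F8.1 (vertical) on log scales, 1 point per library, coloured by group; the dashed line marks the mean ratio of 2.51 outside starvation. All points outside starvation lie near the line, and 2 starvation libraries lie above it.

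Read by treatment, none of the 7 genes was called in starvation by limma, where 57.5% of all tested genes were called. At an unadjusted p under 0.05 the count was also 0 of 7. With median-of-ratios scaling 4 of the 7 genes were called, all lower, and the 57.5% does not apply to that scaling. In fluphenazine 4 were higher (cdr-1, cdr-4 and both numr-1 copies) and 1 lower (cdr-6), beside 43.8% of all genes called. Cantharidin gave 3 higher (cdr-4 and both numr-1 copies) and 2 lower (mtl-2 and cdr-6), beside 37.9%. The same genes were called in the same directions in rpn-6 RNAi, beside 36.7%, and in 25 µM bortezomib, beside 53.4%. In 10 µM bortezomib 2 were higher (cdr-4 and F08F8.5) and 1 lower (mtl-2), beside 12.9%. The medians over the 7 genes were -0.24, 1.37, -0.14, 0.23, 0.32 and -0.09 in starvation, fluphenazine, cantharidin and rpn-6 RNAi and at the 10 µM and 25 µM doses of bortezomib. With 7 genes, chosen with earlier results of these data known, these counts are a description of the set. Their directions are mixed in every treatment with a call. In these and the later counts and in the medians the 2 numr-1 copies enter separately, although the split of reads between them is uncertain.

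**Figure D5:**
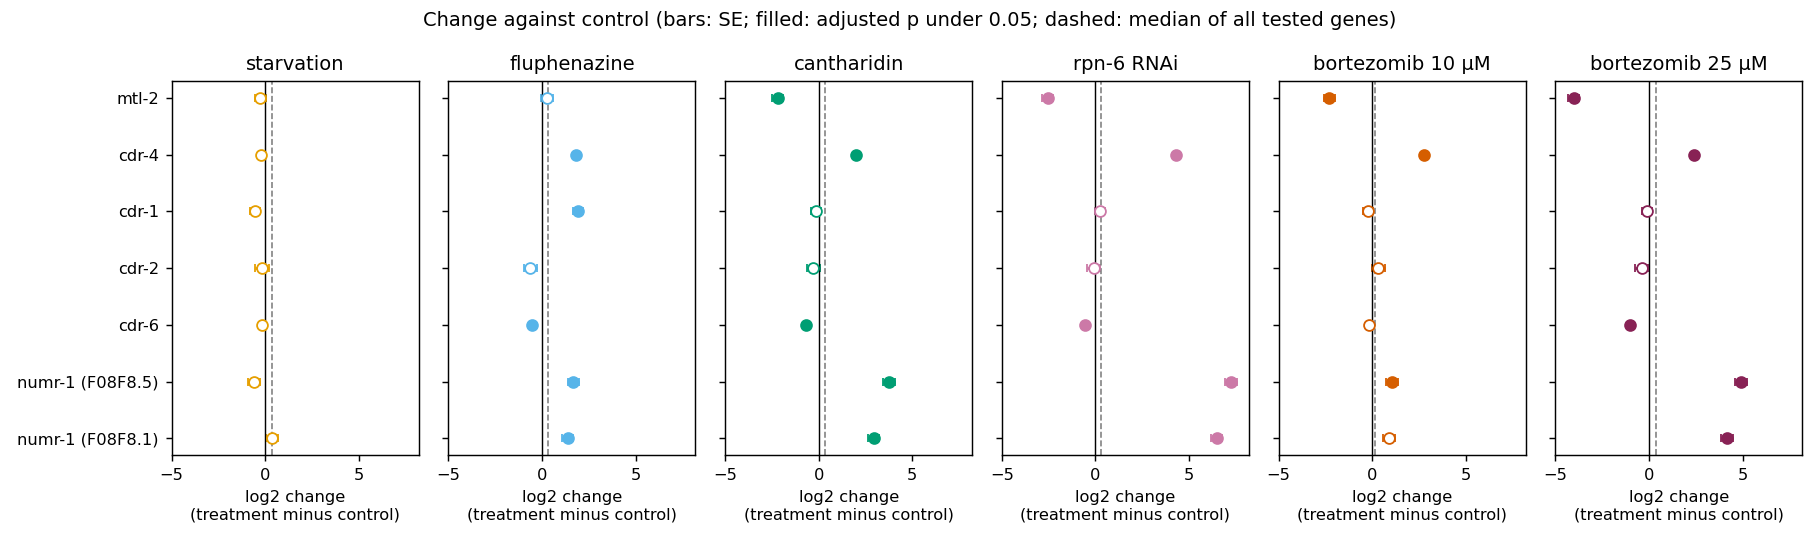
log2 change against control with its SE for the 7 metal-responsive genes in 6 treatments; filled points have an adjusted p under 0.05 and the dashed line is the median of all tested genes. mtl-2 and cdr-6 lie left of 0 and cdr-4 and the numr-1 copies right of 0 in cantharidin, rpn-6 RNAi and 25 µM bortezomib, and cdr-1 is filled in fluphenazine only.

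Does the bortezomib dose matter for these genes? The numr-1 copies differed most: from 10 µM to 25 µM F08F8.5 rose by 3.87 ± 0.32 (3.92 ± 0.515 to 75.5 ± 32.3 FPKM, adjusted p = 1.24e-07) and F08F8.1 by 3.28 ± 0.32 (adjusted p = 8.22e-07). mtl-2 (-1.72 ± 0.30, adjusted p = 2.87e-04) and cdr-6 (-0.81 ± 0.15, adjusted p = 5.59e-04) fell. cdr-4 went from 173 ± 8.19 to 133 ± 7.31 FPKM without overlap of the libraries, but this difference (-0.38 ± 0.16, adjusted p = 0.0779) was not called; it was called in a fit of those groups alone (adjusted p = 0.00227) and with median-of-ratios scaling (adjusted p = 0.0195). cdr-1 (0.13 ± 0.26) and cdr-2 (-0.71 ± 0.35, adjusted p = 0.117) were not called either. In all 4 of 7 genes were called, beside 39.6% of all tested genes. The libraries of the 10 µM and 25 µM doses share no replicate number, and if their worms were prepared together is not stated.

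Bortezomib inhibits the proteasome and the RNAi was aimed at one of its subunits, although rpn-6.1 was not called lower in those libraries than in control. Between the treatments it differed: rpn-6.1 was at 217 ± 5.84 FPKM in 25 µM bortezomib and 121 ± 6.16 FPKM in rpn-6 RNAi. That difference was called (0.83 ± 0.14, adjusted p = 5.52e-04). By limma 5 of the 7 genes were lower in 25 µM bortezomib than in rpn-6 RNAi, beside 22.1% of all genes called in either direction and 8.01% called lower. The differences were -2.31 ± 0.32 for F08F8.5 (adjusted p = 1.20e-04), -2.299 ± 0.32 for F08F8.1, -1.92 ± 0.16 for cdr-4 (adjusted p = 1.21e-06) and -1.47 ± 0.30 for mtl-2 (adjusted p = 0.00288). cdr-6 was called at -0.45 ± 0.15 (adjusted p = 0.0407), and this call was lost when any of the 6 libraries was left out (adjusted p = 0.0672 to 0.155). The groups also differ in when treatment began, at L4 for the drug and at L3 for RNAi, and in the use of RNAi plates. Between 10 µM bortezomib and rpn-6 RNAi the F08F8.5 difference was -6.18 ± 0.32 (adjusted p = 3.33e-10) and the cdr-4 difference -1.54 ± 0.16 (adjusted p = 1.86e-06), while mtl-2 (0.25 ± 0.30, adjusted p = 0.592) was not called.

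Cantharidin and fluphenazine, given at the same 200 µM, differed in mtl-2, cdr-1 and the numr-1 copies. In cantharidin relative to fluphenazine, mtl-2 was lower (-2.47 ± 0.30, adjusted p = 4.18e-05), cdr-1 was lower (-2.05 ± 0.26, adjusted p = 7.96e-05), and F08F8.5 was higher (2.08 ± 0.32, adjusted p = 3.80e-04), as was F08F8.1 (1.56 ± 0.32, adjusted p = 0.00442). cdr-4 was close in both (0.18 ± 0.16, adjusted p = 0.663), and cdr-2 and cdr-6 were not called. Over all 15 pairs of treatments F08F8.5 was called in 14, cdr-4 and F08F8.1 in 12 each and mtl-2 in 11. cdr-1 and cdr-6 were called in 6 each and cdr-2 in 1. The share of all tested genes called was not computed for most of these pairs, cantharidin against fluphenazine included. For 25 µM bortezomib it was 39.6% against the 10 µM dose and 22.1% against rpn-6 RNAi. Whether these counts exceed those of an ordinary tested gene was not tested.

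Other genes of metal handling, taken from a list of 49 symbols that covers zinc, copper, iron and cadmium handling and their regulators, moved in both directions. The files held 47 of them, and 45 were tested. Starvation gave 15 higher and 12 lower, fluphenazine 15 and 7, cantharidin 15 and 4, rpn-6 RNAi 20 and 7, 10 µM bortezomib 6 and 1, and 25 µM bortezomib 15 and 9; the shares of all genes called higher and lower were 39.1% and 18.4%, 34.4% and 9.39%, 31.9% and 5.96%, 27.9% and 8.81%, 9.61% and 3.24%, and 42.3% and 11.1%. The list medians were 0.07, 0.10, 0.18, 0.30, 0.16 and 0.07 in that order, below or at the all-gene medians in each treatment. With median-of-ratios scaling these counts became 11 and 20, 9 and 18, 8 and 15, 11 and 11, 1 and 6, and 9 and 19, so the balance of directions in this list rests on the scaling.

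Among the transporters of the list, zipt-2.3, a zinc transporter gene of the ZIP family, was lower than its 7.43 ± 0.727 FPKM in controls in all 6 treatments without overlap, and fell in 5 of them by the test: starvation (-1.99 ± 0.24, adjusted p = 7.19e-06), fluphenazine (-2.21 ± 0.24), cantharidin (-0.97 ± 0.24), rpn-6 RNAi (-1.05 ± 0.24) and 25 µM bortezomib (-1.98 ± 0.24). At 10 µM bortezomib it was at -0.68 ± 0.24 (adjusted p = 0.0748). The copper homeostasis gene chca-1, at 43.9 ± 13.7 FPKM in controls, was also lower in all 6 without overlap. It fell in 25 µM bortezomib (-3.85 ± 0.47, adjusted p = 5.19e-06, to 2.04 ± 0.546 FPKM), rpn-6 RNAi (-2.98 ± 0.47, adjusted p = 8.06e-05), starvation (-2.17 ± 0.47) and fluphenazine (-2.02 ± 0.47), and was not called in cantharidin (-1.21 ± 0.47, adjusted p = 0.0519) or 10 µM bortezomib (-0.70 ± 0.47, adjusted p = 0.356). mrp-2, an ABC exporter gene, rose in rpn-6 RNAi (2.26 ± 0.20, adjusted p = 1.52e-07), fluphenazine (1.74 ± 0.20), cantharidin (1.31 ± 0.20) and 25 µM bortezomib (0.74 ± 0.20). zipt-2.1 moved both ways: it fell in 10 µM bortezomib (-0.63 ± 0.19, adjusted p = 0.0430) and rpn-6 RNAi (-0.85 ± 0.19) and rose in starvation (0.88 ± 0.19) and fluphenazine (1.07 ± 0.19).

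In the synthesis of metal-binding thiols, pcs-1, the phytochelatin synthase gene, rose in 25 µM bortezomib (1.56 ± 0.16, adjusted p = 7.28e-07), rpn-6 RNAi (1.06 ± 0.16), cantharidin (0.58 ± 0.16) and fluphenazine (0.43 ± 0.16, adjusted p = 0.0390), and was not called in 10 µM bortezomib (0.44 ± 0.16, adjusted p = 0.0802) or starvation (0.12 ± 0.16). The glutathione synthetase gene gss-1 fell in starvation (-0.75 ± 0.08) and fluphenazine (-0.35 ± 0.08) and rose in rpn-6 RNAi (0.49 ± 0.08) and in 10 µM (0.45 ± 0.08, adjusted p = 0.00227) and 25 µM bortezomib (0.28 ± 0.08).

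Among the regulators, hizr-1, the nuclear receptor that senses high zinc and activates mtl-1 and cdf-2, fell from 5.06 FPKM in controls to 0.877 FPKM in rpn-6 RNAi (-1.69 ± 0.16, adjusted p = 2.75e-07) and to 1.67 FPKM in 25 µM bortezomib (-1.19 ± 0.16, adjusted p = 1.39e-05), and was not called in the other treatments. The FOXO gene daf-16, which acts below the insulin receptor, rose in all 6 treatments, from 0.52 ± 0.08 in 10 µM bortezomib (adjusted p = 4.89e-04) to 1.05 ± 0.08 in starvation (adjusted p = 6.16e-08). pqm-1, a zinc finger factor known to act in opposition to DAF-16, also rose in all 6 from 21.3 FPKM in controls. It reached 87.2 to 92.2 FPKM in starvation, fluphenazine, cantharidin and 25 µM bortezomib, with changes from 2.02 ± 0.21 to 2.102 ± 0.21, and 50.9 and 42.3 FPKM in rpn-6 RNAi (1.25 ± 0.21, adjusted p = 1.39e-04) and 10 µM bortezomib (0.99 ± 0.21, adjusted p = 0.00524).

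Genes whose pattern was most like that of each metal-responsive gene were looked for among 13676 tested genes, by Pearson's r of log2(FPKM + 1) over the 21 libraries, which share groups and depth; the values are a description. For cdr-4 they were hsp-17, a small heat shock gene (r = 0.967, Spearman's rho = 0.948), Y94H6A.10 (r = 0.933) and F44E5.4, a gene of the HSP70 family (r = 0.931). hsp-17 went from 38.3 FPKM in controls to 569 FPKM in rpn-6 RNAi, and F44E5.4 from 15.5 to 290.2 FPKM. For the numr-1 copy F08F8.5 they were ZC21.10 (r = 0.959), T07A5.7 (r = 0.958) and Y51F10.15 (r = 0.951), and for F08F8.1 they were T07A5.7 (r = 0.967), the Rab GTPase gene rab-11.2 (r = 0.960) and ifas-1 (r = 0.960). T07A5.7, named for both copies, was at 0.808 FPKM in controls, 20.8 FPKM in rpn-6 RNAi and 8.18 FPKM in 25 µM bortezomib.

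For mtl-2 the nearest genes were nduf-7, of a subunit of mitochondrial complex I (r = 0.939), T05E7.1 (r = 0.935) and ril-1 (r = 0.929). T05E7.1 had the wider range of these, from 10.7 FPKM in controls to 0.980 FPKM in 25 µM bortezomib, while nduf-7 went from 269 to 189 FPKM. For cdr-6 they were ndab-2 (r = 0.927), the dehydrogenase gene dhs-3 (r = 0.857) and the malate dehydrogenase gene mdh-2 (r = 0.843). For cdr-1 they were C01G12.5 (r = 0.908), F59A7.11 (r = 0.903) and the cytochrome P450 gene cyp-35B3 (r = 0.897), whose Spearman's rho was lower at 0.514, 0.545 and 0.237. These 3 genes were near 0 FPKM outside fluphenazine and at 432, 44.7 and 914 FPKM in it, so their likeness to cdr-1 rests on the 3 fluphenazine libraries. For cdr-2, called in no comparison with control without rescaling or array weights, the values were lower: F44B9.2 (r = 0.784), the S-adenosylmethionine synthetase gene sams-3 (r = 0.780) and pcp-3 (r = 0.767).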

How the data were processed

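Messenger RNA of whole worms was sequenced from TruSeq stranded libraries, per the labels' protocols. The deposited values are FPKM made by the authors, 1 value per gene ID and library; the submitters' processing notes name CASAVA and Cufflinks; settings, the genome build and the annotation are not given in the sources used here. Replicates were not pooled. The 46254 IDs were joined to symbols from annotation tables, of which 43200 matched. From these values, genes at 1 FPKM or more in at least 3 libraries were tested on log2(FPKM + 1) with limma 3.58.1 in R 4.3.3 (lmFit and eBayes with trend, 2-sided, 14 residual degrees of freedom, Benjamini-Hochberg over all tested genes); the code was tested on simulated data. Sums of FPKM ran from 938941 to 1036350 per library, and depth was read only as a ratio between libraries. The named genes are all members found, mtl-1, in each treatment the 2 called genes of the metal handling list with the smallest adjusted p in each direction, the 3 genes most like each member, and rpn-6.1; hrg-2 was added later. Members and lists were chosen with earlier results of these data known. Alternatives were a pseudocount of 0.1 FPKM, no filter and a filter of 5 FPKM, median-of-ratios and quantile scaling, array weights (estimated gene by gene, since the default estimate did not converge), pairwise fits, exact zeros as missing, leaving out each library, and the replicate block.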

Additional observations from a re-analysis of the deposited data

How the results depend on the processing

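Of 56 tested changes of the 7 genes 32 were called, 27 of them under every alternative tried, and none of the 32 changed sign; of the 24 not called, 16 were called under at least 1 alternative. The calls lost were F08F8.5 at the 10 µM dose (1.06; 0.90 with median-of-ratios scaling, adjusted p = 0.0842; 0.65 with quantile normalization, adjusted p = 0.369; 0.99 to 1.14 with a library left out), F08F8.5 and F08F8.1 in fluphenazine with quantile normalization (0.77 and 0.63), cdr-6 in fluphenazine in the pairwise fit (-0.55, adjusted p = 0.0831), and cdr-6 in 25 µM bortezomib against rpn-6 RNAi (-0.50 to -0.37 with a library left out). Except where numbers of genes called are printed, counts of the 7 genes under an alternative have no share of all genes beside them. Where no cause is named, the cause was not tested.

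With median-of-ratios scaling 4 of the 7 genes were called in starvation: cdr-1 (-0.74), cdr-4 (-0.58), cdr-6 (-0.53) and F08F8.5 (-0.81). cdr-2 was then called in fluphenazine (-1.01) and 25 µM bortezomib (-0.81) and between the doses (-0.87), cdr-6 in 10 µM bortezomib (-0.46) and cdr-4 between the doses (-0.54), while mtl-2 in fluphenazine (-0.13) and cdr-1 in rpn-6 RNAi (-0.0056) changed sign. Of neighbouring groups, 4 were then called apart for cdr-4 and 2 for cdr-6. The list of other metal handling genes then gave 20 lower in starvation, 9 higher and 18 lower in fluphenazine, 8 and 15 in cantharidin, 11 and 11 in rpn-6 RNAi, 1 and 6 in 10 µM and 9 and 19 in 25 µM bortezomib.

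With quantile normalization 3 genes were called in starvation, cdr-1 (-1.19), cdr-4 (-0.65) and F08F8.5 (-1.26), with F08F8.1 turning to -0.17. cdr-1 was then called in cantharidin (-1.01) and 25 µM bortezomib (-0.97) and turned in rpn-6 RNAi (-0.45) and between the doses (-0.42). cdr-2 was called in fluphenazine (-1.05), in 25 µM bortezomib (-1.07) and between the doses (-1.08). Neighbouring groups called apart were 2 for cdr-1 and 1 for cdr-6, and the list gave 8 higher and 12 lower in fluphenazine, 5 and 9 in cantharidin, 8 higher in rpn-6 RNAi, 3 and 4 in 10 µM and 8 and 16 in 25 µM bortezomib.

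Array weights called far more genes: 14405 for fluphenazine, 12750 for cantharidin, 11568 for rpn-6 RNAi and 7784 in 10 µM bortezomib. In starvation 4 of the 7 genes were called, mtl-2 (-0.78), cdr-1 (-0.73), cdr-6 (-0.45) and F08F8.1 (0.63), and cdr-2 (0.0061) and cdr-4 (0.13) turned. mtl-2 (-0.20) and cdr-2 (0.18) turned in fluphenazine and cdr-2 (0.18) in rpn-6 RNAi. In 10 µM bortezomib 6 of the 7 were called, with cdr-2 at 0.62, cdr-6 at -0.25 and F08F8.1 at 0.92; cdr-2 (-0.86) and cdr-4 (-0.37) were called between the doses and cdr-2 (-0.41) against rpn-6 RNAi. Neighbouring groups called apart were 2 for cdr-2, 4 for cdr-4, 5 for cdr-6 and 5 for F08F8.1. The list gave 19 lower in starvation, 23 higher and 17 lower in fluphenazine, 24 and 12 in cantharidin, 13 lower in rpn-6 RNAi, 16 and 5 in 10 µM and 14 lower in 25 µM bortezomib.

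The pairwise fits called 5398 genes in starvation and 2567 in fluphenazine, with fewer libraries behind the spread. They called 1 of the 7 in starvation (F08F8.5, -0.61), F08F8.1 in 10 µM bortezomib (0.89), and cdr-2 (-0.71) and cdr-4 (-0.38) between the doses; the list gave 9 higher in starvation, 7 higher and 3 lower in fluphenazine and 2 lower in 10 µM bortezomib. A pseudocount of 0.1 FPKM called F08F8.5 in starvation (-1.19, 1 of the 7), F08F8.1 in 10 µM bortezomib (1.61) and 3 list genes lower there, against 0 with no filter and 2 with a filter of 5 FPKM. Setting exact zeros to missing changed no call of the 7 genes.

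Only rpn-6 RNAi and 25 µM bortezomib share 2 replicate numbers (4 and 6) with the controls. Deviations of same-numbered libraries from their group means correlated at r = -0.16 and -0.133, and 0.054 and -0.263. Controls 4 and 6 gave near-equal r with each treated library, so this check cannot tell if same-numbered libraries belong together. The replicate block called 4016 genes in rpn-6 RNAi, where cdr-2 turned to 0.074, and 5 list genes lower in 25 µM bortezomib; no paired analysis was possible for the other treatments because they share fewer than 2 numbers with the controls.

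With 1 library left out, the genes called ran from 4560 to 11010 in fluphenazine (lowest without fluphenazine 9), from 4319 to 7739 in cantharidin (lowest without cantharidin 3) and from 1124 to 2514 in 10 µM bortezomib (lowest without replicate 7). cdr-1 ran from -0.84 to -0.25 in starvation, where it was called without control 6 or starvation 3 (0 to 1 of the 7 genes called), from -0.45 to 0.14 in cantharidin, from -0.080 to 0.51 in rpn-6 RNAi, from -0.53 to 0.055 in 10 µM and -0.40 to 0.18 in 25 µM bortezomib, and from -0.10 to 0.32 between the doses. cdr-2 ran from -0.38 to 0.16 in starvation, -0.49 to 0.048 in cantharidin and -0.29 to 0.24 in rpn-6 RNAi, positive without control 7 and, in rpn-6 RNAi, also without rpn-6 RNAi 4. Neighbouring groups called apart for cdr-4 ran from 2 to 4 (4 without control 7), and list genes called lower from 6 to 14 in fluphenazine, 2 to 4 in cantharidin, 0 to 1 in 10 µM and 5 to 9 in 25 µM bortezomib. With 3 libraries a group and no absolute depth, levels near 1 FPKM (cdr-1, and both numr-1 copies in control and starvation) are the least certain.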
